A study of Rattus norvegicus with 10 samples.

Results

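The genes described here are the homeobox, POU and paired developmental transcription factors of the rat, taken from an array study of cortex in the first hours of a stroke. They were found by name: every probe set annotated with a single gene symbol that begins with Lhx, Pou, Dlx, Nkx, Pax, Emx or the stem of Six3 and a digit, or with Hoxa, Hoxb, Hoxc or Hoxd and a digit. The rule found 89 genes among the 18166 distinct symbols of the array, each with 1 probe set. They were 17 Pou, 11 Nkx, 10 Hoxb, 9 Hoxa, 8 Lhx, 8 Pax, 7 Hoxc, 6 Dlx, 6 Hoxd, 5 sine oculis family (Six2, Six3, Six4, Six6 and Six6os1) and 2 Emx genes. Of these, 5 make no protein with a homeodomain or paired domain. Pou2af1, Pou2af2 and Pou2af3 are coactivators of POU factors, and Hoxa11-as and Six6os1 lie opposite a member of the families. A further 16 protein-coding rat genes with such names had no probe set of a single symbol and were not analysed here.

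RNA was taken from the left cortex of 10 adult male Sprague-Dawley rats, 3 hours after surgery, with an array for each animal. In the MCAO group (n = 3) the left middle cerebral artery was closed for good with an intraluminal suture, after vehicle (bovine serum albumin in buffered saline) had been given into the internal carotid artery. The MCAO+NRG1 group (n = 3) had the same occlusion after the EGF-like domain of neuregulin-1β, a growth factor that signals through ErbB receptors. Sham rats (n = 4) had the surgery without a filament, and no injection is described for them, so that the occlusion and the injection cannot be told apart in a comparison with sham. All groups share the anaesthesia and the neck surgery, and the tissue was whole cortex of a series of coronal slices, in which fewer cells of a type and less RNA per cell cannot be told apart.

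Homeodomain proteins bind short AT-rich DNA through a helical domain, and many pair with cofactors that sharpen the sites they choose. POU factors carry an added POU-specific domain, and PAX factors a paired domain, which read further bases. In the embryo these families lay out the body: Hox genes set position along the spinal cord and hindbrain and are largely silent in the forebrain, Emx and Lhx2 mark the dorsal forebrain that becomes cortex, and Dlx, Nkx2-1 and Lhx6 mark the ventral forebrain that sends interneurons and forms the striatum. A part of them stays active in the adult, among them Pou3f2 and Pou3f3 in cortical projection neurons and Lhx6 in interneurons.

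The values are log2 RMA signals, on which a difference of 1 is a factor of 2. Levels of different probe sets cannot be set against each other, so a level was read only against the background of the array. That background level was set at 4.64 log2, under which lie 95% of the 1359 probe sets for olfactory and vomeronasal receptors, genes of the nose that cortex hardly uses. By their mean over the 10 arrays, 50 members lay above this level and 39 near background. Of all probe sets with a single symbol 68.3% lay above it. All 6 Dlx, both Emx and 9 of 11 Nkx genes were above it. Of the 32 Hox members, 12 were. The nearest members below the level were Pou4f3 at 4.63, Lhx5 at 4.59 and Hoxc9 at 4.55 log2, and the nearest above were Pax2 at 4.66, Pou4f1 at 4.70 and Pou2af1 at 4.71. A member near background may still be transcribed in few cells, and a difference between groups there is a difference in a weak signal.

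**Figure D1:**
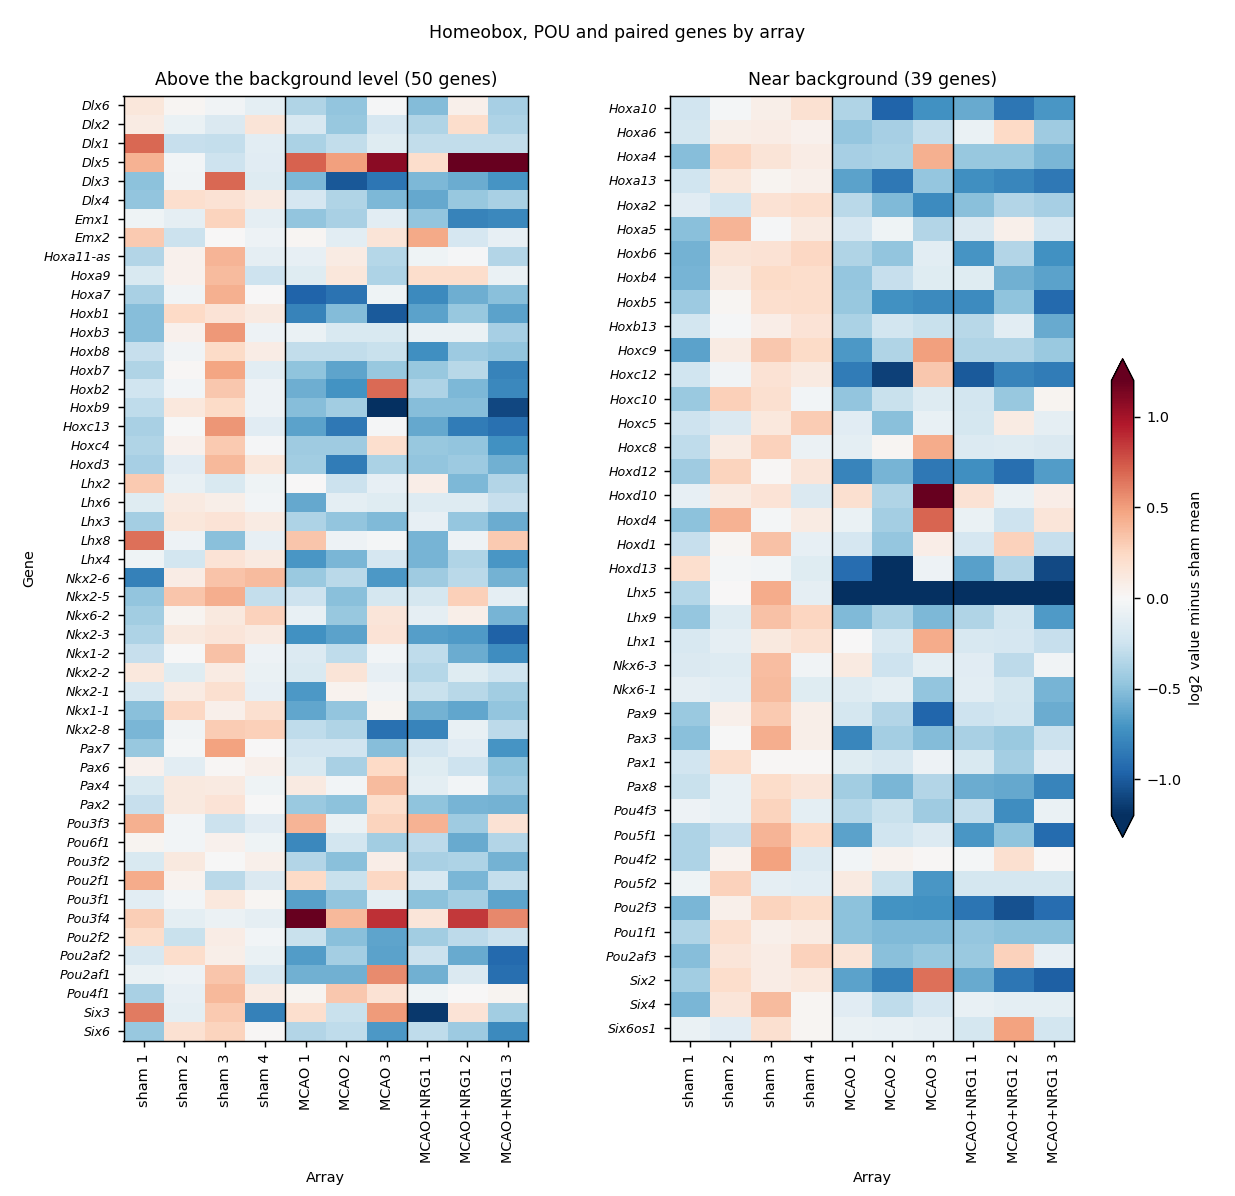
Each row is a gene and each column an array, with colour for the log2 value minus the mean of the 4 sham arrays, for the 50 members above the background level (left) and the 39 near it (right). Blue (lower) cells fill most of the 6 occluded arrays and also the column of sham 1, while Dlx5 and Pou3f4 are red in the occluded arrays.

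Arrays within the sham group differed for these genes. Sham replicate 1 held the lowest sham value of 63 of the 89 members (70.8%), against 39.2% of all 18511 single-symbol probe sets tested, and sham replicate 3 held the highest of 47 (52.8%, against 28.9%). The median of the members against their sham mean was −0.28 log2 in sham 1 and 0.17 in sham 3, and −0.36, −0.38 and −0.15 in the 3 MCAO arrays. In the MCAO+NRG1 arrays it was −0.36, −0.35 and −0.47. The median over all tested probe sets was also lower in 5 of the 6 occluded arrays, by 0.22 to 0.26 log2, with 0.02 in MCAO replicate 3, and from −0.03 to 0.00 in the sham arrays. The differences from sham below include this downward shift of all genes, which adds to a fall and takes from a rise, and sham 1 lies nearer to the occluded arrays than the other sham arrays do. The labels give no scan date or slide, so a batch could not be examined.

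**Figure D2:**
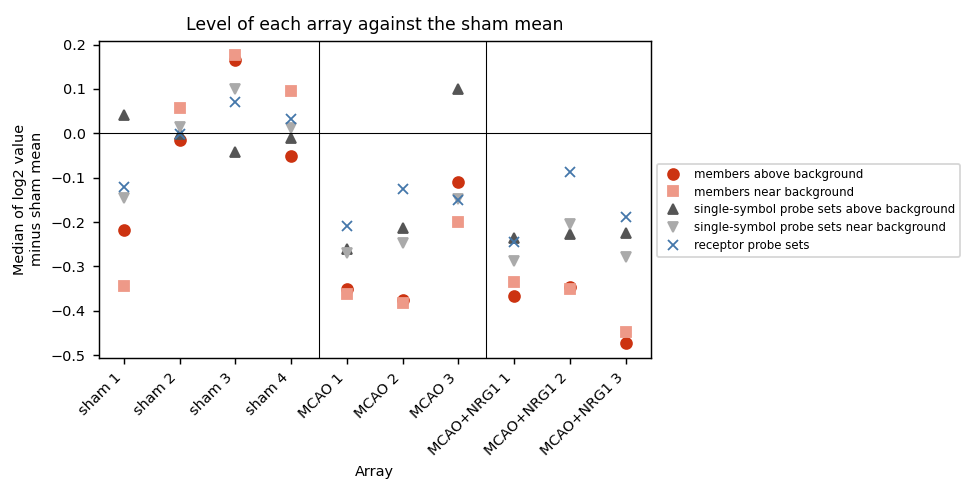
For each array, the median over probe sets of the log2 value minus its sham mean, for members and all single-symbol probe sets above and near background and for the receptor probe sets. Members (red and pink) lie at −0.22 and −0.34 in sham 1, and between −0.11 and −0.47 in the 6 occluded arrays.

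Occlusion was compared with sham first (MCAO minus sham). A lower signal of Lhx5, of 5 Hox genes and of Dlx3 and a higher signal of Pou3f4 passed the test. In limma, with Benjamini-Hochberg adjustment over all 18511 probe sets, 8 of the 89 members were called at an adjusted p under 0.05, 1 higher and 7 lower, beside 6.7% of all probe sets (1.1% higher and 5.61% lower), so that the count of members is close to the background. Of the 50 members above the background level 2 were called lower, beside 5.21% of such probe sets, and of the 39 near it 5, beside 6.45%. The median difference of the 89 members was −0.29 log2 and that of all probe sets −0.16. Of the members 75 were negative, beside 69.0% of all probe sets. At an unadjusted p under 0.05 there were 32 members, beside 29% of all probe sets. The arrays of the 2 groups did not overlap for 18 members lower and 2 higher, beside 17.8% and 2.74% of all probe sets. The 5 Hox genes and Dlx3 were not called under any of the 3 other scalings of the arrays tried, and 1 or 2 members were: with each array centred on its median the split was 1 higher and 1 lower. The count was 26 without sham 1 (18.1% of all probe sets in the same fit), 17 without MCAO 3 (19.4%), 1 without sham 2, 3 or 4 (0.556%, 1.11% and 0.551%), and 2 without MCAO 1 or 2 (0.881% and 0.837%), so that the share of all genes called moved with that of the members.

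For the 8 called members the start of the gene was looked up, since homeodomain factors often act on each other's genes. RefSeq promoters (250 bases before to 50 after the start, assembly GRCr8) were at hand for 56 of the 89 members by symbol, and for 5 of the 8, which follow 5′ to 3′ on the strand of the gene. Capitals mark the homeodomain core TAAT or its reverse complement ATTA.
Pou3f4 (chrX:79974558-79974857, + strand): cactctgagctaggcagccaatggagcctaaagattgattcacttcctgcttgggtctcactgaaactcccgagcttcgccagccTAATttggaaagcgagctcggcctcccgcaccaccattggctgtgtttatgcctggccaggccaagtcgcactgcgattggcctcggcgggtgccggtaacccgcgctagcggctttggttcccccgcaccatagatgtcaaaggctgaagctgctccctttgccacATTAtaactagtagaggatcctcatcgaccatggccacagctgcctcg
Hoxb1 (chr10:81827665-81827964, + strand): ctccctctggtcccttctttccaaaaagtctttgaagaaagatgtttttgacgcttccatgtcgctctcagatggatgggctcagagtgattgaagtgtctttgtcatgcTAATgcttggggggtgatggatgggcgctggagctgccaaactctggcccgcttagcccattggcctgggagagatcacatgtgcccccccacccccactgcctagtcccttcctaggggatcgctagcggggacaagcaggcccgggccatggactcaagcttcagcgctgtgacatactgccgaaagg
Hoxd12 (chr3:79984856-79985155, + strand): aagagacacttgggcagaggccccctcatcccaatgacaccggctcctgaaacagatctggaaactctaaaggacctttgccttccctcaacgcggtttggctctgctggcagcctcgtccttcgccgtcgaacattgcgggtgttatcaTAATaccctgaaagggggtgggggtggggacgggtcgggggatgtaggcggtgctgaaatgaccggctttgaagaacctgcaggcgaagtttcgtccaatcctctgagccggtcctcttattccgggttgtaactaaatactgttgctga
Hoxa10 (chr4:82671441-82671740, − strand): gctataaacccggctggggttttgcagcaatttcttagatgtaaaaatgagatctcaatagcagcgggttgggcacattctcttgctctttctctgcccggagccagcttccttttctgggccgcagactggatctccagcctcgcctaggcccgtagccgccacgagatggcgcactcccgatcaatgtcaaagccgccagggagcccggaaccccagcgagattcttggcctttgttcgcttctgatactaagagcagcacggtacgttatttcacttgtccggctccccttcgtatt
Hoxa13 (chr4:82691652-82691951, − strand): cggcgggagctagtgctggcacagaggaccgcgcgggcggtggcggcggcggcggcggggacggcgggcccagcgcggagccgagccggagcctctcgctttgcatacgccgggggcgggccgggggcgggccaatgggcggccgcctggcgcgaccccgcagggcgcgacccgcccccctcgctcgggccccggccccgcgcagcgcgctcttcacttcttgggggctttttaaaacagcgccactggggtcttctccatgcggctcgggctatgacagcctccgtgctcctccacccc

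The core was found at 2 places in the window of Pou3f4, the single called gene with a higher signal, TAAT before the start and ATTA just after it, and at 1 place each for Hoxb1 and Hoxd12. The windows of Hoxa10 and Hoxa13 held no such letters. Hoxa13 stood out by its GC content of 76.7% and 5 GC boxes (GGGCGG or CCGCCC), while the GC content was 57.3% for Pou3f4, 56.3% for Hoxb1, 55.3% for Hoxd12 and 54.7% for Hoxa10. Over all 56 member promoters, TAAT or ATTA was in 25 (44.6%), beside 59.7% of 27457 rat promoters, and the GC box in 36 (64.3%), beside 34.9%. The POU octamer ATGCAAAT, searched on both strands, was in 0 of the 56 and in 1.64% of all promoters. An AP-1 site (TGANTCA) was in 2, Pou3f4 among them (7.33% of all), and the TATA box (TATAAA, both strands) in 3, Hoxa10 among them (14.3% of all). The median GC content was 62.2% for the members and 52.3% for all promoters. These letters describe the windows and are not measured binding sites.

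Lhx5 (probe set 17678285), a LIM homeodomain factor of hippocampal and hypothalamic development in the mouse, had the member change of smallest p in both comparisons with sham. Its values were 5.08, 5.42, 5.87 and 5.32 log2 in the 4 sham arrays, 4.20, 4.01 and 4.07 in the MCAO arrays, and 4.21, 3.79 and 3.92 in those of MCAO+NRG1. Every sham array lay above the background level and every occluded array below it, with no overlap. It fell by 1.33 log2 in MCAO against sham (SE 0.19, adjusted p = 0.00346 in limma) and, in MCAO+NRG1 against sham, fell by 1.45 log2 (SE 0.19, adjusted p = 0.000578). Both calls held in all 23 alternative settings, which include unadjusted p, where a call cannot be lost. With each array centred on its median the changes were −1.17 log2 (adjusted p = 0.0222 in limma) and −1.18 log2 (adjusted p = 0.00673).

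Cell markers were read beside Lhx5. Of all probe sets 5.61% were called lower in MCAO and 15.8% in MCAO+NRG1 against sham. Markers of the choroid plexus, a tissue that lies in the ventricles, were lower in the same arrays. All 10 had a negative MCAO minus sham difference, beside 69.0% of all probe sets, with 0 called. In MCAO+NRG1 against sham 6 of 10 were called lower. Their summed level was 8.43 to 11.6 log2 in sham, 8.07 to 8.22 in MCAO and 7.93 to 8.24 in MCAO+NRG1, with no overlap between sham and the occluded arrays. Their median against the sham mean did overlap: it was −0.70, 0.75, 0.00 and −0.12 log2 in the sham arrays. Sham 1 thus lay within the range of the occluded arrays (−1.07 to −0.52). Folr1, Clic6, Otx2 and Cldn2 were near background. For 14 thalamic and hypothalamic markers, 8 above background, the summed level overlapped between groups (9.79 to 10.1 log2 in sham, 9.86 to 10.2 in MCAO, 9.85 to 10.01 in MCAO+NRG1), with 0 called in MCAO and 2 lower in MCAO+NRG1 against sham. The 12 meningeal markers had 6 called lower in MCAO and 10 in MCAO+NRG1 against sham, with summed levels of 11.8 to 12.2 log2 in sham, 11.3 to 11.7 in MCAO and 10.7 to 11.4 in MCAO+NRG1. Of these 12, 9 were above background. The part of these cells in the Lhx5 result was not tested.

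The other LIM homeodomain genes did not pass in MCAO. Lhx2, which keeps dorsal forebrain cells on the cortical path, measured 9.07, 8.66, 8.57 and 8.70 log2 in sham and 8.75, 8.49 and 8.65 in MCAO, far above background. The groups overlapped, at −0.12 log2 (SE 0.18). Lhx3, a factor of pituitary and motor neuron development, was 6.22, 6.77, 6.79 and 6.72 log2 in sham and 6.25, 6.15 and 6.09 in MCAO, at −0.46 log2 (adjusted p = 0.106 in limma). Sham 1 was apart from the other 3 sham arrays and within the range of the occluded ones. A list of LIM cofactors and LIM-only proteins also held the LIM homeodomain genes Isl1, Isl2, Lmx1a and Lmx1b. Of its 12 measured genes, 10 of them above background, 0 were called in either comparison with sham. Of all probe sets 6.7% and 17.3% were called. The medians of the list were −0.07 log2 in MCAO and −0.31 in MCAO+NRG1.

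Pou3f4 (probe set 17873593), a POU factor of the embryonic striatum and inner ear in rodents, was the called member with a higher signal in MCAO. It measured 5.92, 5.52, 5.56 and 5.53 log2 in sham, 6.90, 6.02 and 6.51 in the MCAO arrays, and 5.78, 6.47 and 6.20 in those of MCAO+NRG1. Every MCAO array was above every sham array, by the least margin over sham 1, while MCAO+NRG1 replicate 1 lay below sham 1. Pou3f4 rose by 0.85 log2 in MCAO (SE 0.21, adjusted p = 0.0326 in limma), and its value in MCAO+NRG1 against sham was 0.52 log2 (SE 0.21, adjusted p = 0.0943). Over the alternatives the MCAO call was kept in 17 of 24. It was lost without sham 2, 3 or 4 (0.81, 0.82 and 0.81 log2) and without MCAO 1 (0.64 log2, adjusted p = 0.138), and with the receptor probe sets as the scale (1.02 log2, adjusted p = 0.0523).

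Its relatives stood apart from it. Pou3f3, active in upper cortical layers, was 9.02, 8.56, 8.34 and 8.46 log2 in sham and 9.002, 8.51 and 8.86 in MCAO, at 0.20 log2 (SE 0.21), with overlap. Pou3f2, which acts with it, was at −0.26 log2 (SE 0.17), and Pou3f1, a factor of Schwann cells and deep-layer cortical neurons, at −0.42 (SE 0.16, adjusted p = 0.106). Pou6f1, a POU factor of the adult brain, measured 8.17, 8.10, 8.18 and 8.08 log2 in sham, 7.36, 7.91 and 7.72 in the MCAO arrays and 7.82, 7.53 and 7.78 in those of MCAO+NRG1. No occluded array reached the lowest sham array, but neither comparison with sham passed (−0.47 log2, adjusted p = 0.078 in MCAO, and −0.42 log2, adjusted p = 0.0755 in MCAO+NRG1, limma).

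The Dlx genes, which drive GABA neuron fate in the ventral forebrain, gave values in both directions. Dlx5 (probe set 17789619) measured 6.47, 6.02, 5.80 and 5.92 log2 in sham, 6.76, 6.55 and 7.13 in the MCAO arrays, and 6.26, 7.95 and 7.29 in those of MCAO+NRG1. All 3 MCAO arrays lay above all sham arrays, and MCAO+NRG1 replicate 1 fell within the sham range. Its MCAO minus sham value was 0.76 log2 (SE 0.29, adjusted p = 0.106 in limma). Its neighbour in the genome, Dlx6, was at −0.28 log2 (SE 0.18), and Dlx1 and Dlx2, the other pair of ventral forebrain genes, at −0.27 (SE 0.21) and −0.28 (SE 0.17), with 0 of these 3 called. Dlx1 was 7.58 log2 in sham 1 and 6.61, 6.61 and 6.77 in the other sham arrays.

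Dlx3 (probe set 17650401), known from skin, tooth and placenta, measured 5.26, 5.70, 6.43 and 5.59 log2 in sham, 5.21, 4.73 and 4.87 in the MCAO arrays and 5.21, 5.15 and 5.04 in those of MCAO+NRG1. Sham 1 was just above the highest MCAO array. It fell by 0.81 log2 in MCAO (SE 0.22, adjusted p = 0.0444 in limma) and was at −0.61 log2 in MCAO+NRG1 against sham (adjusted p = 0.0663). The MCAO call held in 9 of 24 alternatives and was lost when any array other than sham 1 was left out, with adjusted p of up to 0.156 over all alternatives.

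**Figure D3:**
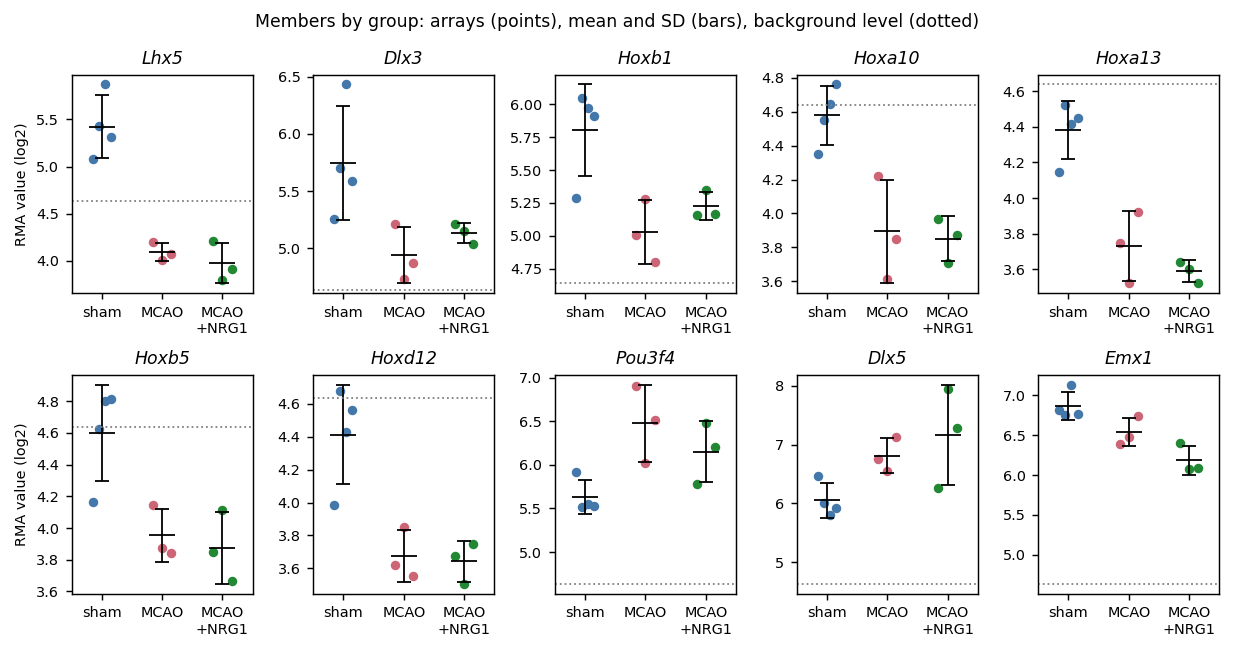
Log2 RMA values of 10 members, with a point for each array, the group mean as a dash, the SD as bars and the background level as a dotted line. In Lhx5 the 4 sham points (5.08 to 5.87) lie above the line and the 6 occluded points (3.79 to 4.21) below it, while in Dlx5 and Pou3f4 MCAO+NRG1 replicate 1 is at 6.26 and 5.78.

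Striatal neuron markers moved with some of these genes. All 11 were above background and had a positive MCAO minus sham difference (median 0.32 log2), with 1 called: Tac1, which encodes substance P, at 0.84 log2 (adjusted p = 0.0447 in limma). Of all probe sets 1.1% were called higher, and 69.0% had a negative difference. The summed level was 11.5 to 11.9 log2 in sham, 11.96 to 12.5 in MCAO and 11.1 to 12.2 in MCAO+NRG1. In single arrays the median of the markers against sham was 0.30, 0.03, 0.13 and −0.37 log2 in sham, 0.41, 0.15 and 0.62 in the MCAO arrays and −0.41, 0.52 and 0.13 in those of MCAO+NRG1. Six3, a factor of the sine oculis family needed for striatal neurons in the mouse, was 7.30, 6.56, 6.997 and 5.87 log2 in sham, 6.88, 6.41 and 7.19 in the MCAO arrays and 5.53, 6.85 and 6.27 in those of MCAO+NRG1. Six3 was lowest in sham 4 and MCAO+NRG1 replicate 1, the 2 arrays in which the striatal markers were lowest. Its MCAO minus sham value was 0.15 log2 (SE 0.32). Dlx5 and Pou3f4 were lower in MCAO+NRG1 replicate 1 than in the other occluded arrays, but in sham 4 neither was the lowest of the sham arrays. The part of striatal tissue in the values of Dlx5, Pou3f4 and Six3 was not tested.

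**Figure D4:**
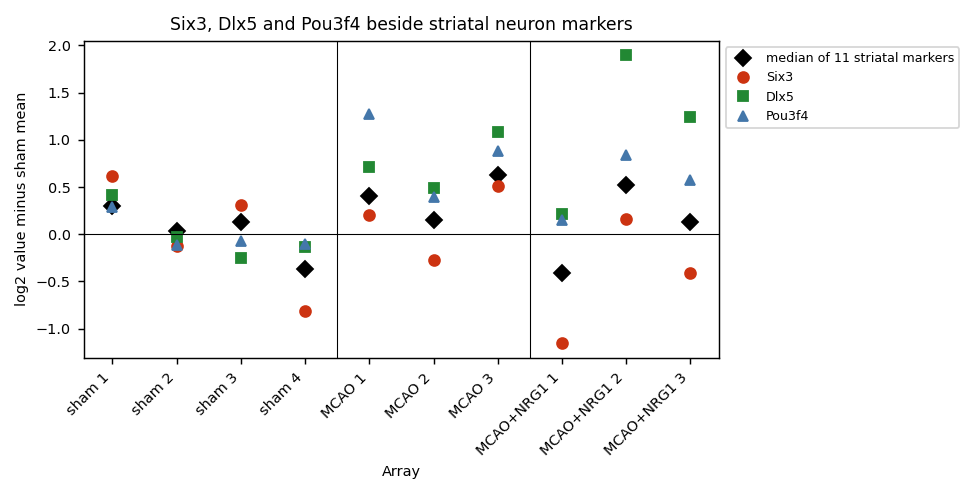
Log2 values minus the sham mean of Six3, Dlx5 and Pou3f4 in each array, beside the median of 11 striatal neuron markers (black). The black markers lie at −0.37 in sham 4 and −0.41 in MCAO+NRG1 replicate 1, where Six3 is also lowest, and at 0.41, 0.15 and 0.62 in MCAO.

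No member of cortical identity passed the test in MCAO. Emx1, which marks the dorsal forebrain and its excitatory neurons, was 6.82, 6.76, 7.13 and 6.76 log2 in sham and 6.39, 6.48 and 6.74 in MCAO. Its MCAO arrays were below all sham arrays, at −0.33 log2 (SE 0.16, adjusted p = 0.19 in limma). Emx2 was at 0.02 log2 (SE 0.19), Pax6, a paired factor of cortical progenitors, at −0.11 (SE 0.17) and Lhx9 near background at −0.48 (SE 0.20, adjusted p = 0.121). Of 5 dorsal forebrain members 0 passed, of 7 ventral forebrain and interneuron members 0, of 4 projection neuron members 0, and of 3 members known from oligodendrocytes (Nkx2-2, Nkx6-1 and Nkx6-2) 0. Of all probe sets 6.7% were called, so that 0 calls in groups of this size say little about them. For the ventral group (Dlx1, Dlx2, Dlx5, Dlx6, Lhx6, Lhx8 and Nkx2-1) the median was −0.27 log2, and for the dorsal group −0.12. Beside them, 18 other factors of cortical identity, all above background, had 0 called and a median of −0.10 log2, and 9 neuron markers 0 called and 0.05 log2.

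The Hox genes, 32 of the 89 members, made up 5 of the 7 lower calls, most of them near background. Of all probe sets 5.61% were called lower. Of the 32 Hox members, 29 were negative in MCAO against sham, and all 10 Hoxb members were. Beside them, 69.0% of all probe sets were negative, and 78.8% of those near background. Hoxb1 (probe set 17650552), a hindbrain patterning gene, was the called Hox gene above background and measured 5.29, 6.05, 5.97 and 5.91 log2 in sham, 5.005, 5.28 and 4.80 in the MCAO arrays and 5.16, 5.35 and 5.16 in those of MCAO+NRG1. Sham 1 was within 0.1 log2 of the highest MCAO array. Hoxb1 fell by 0.77 log2 in MCAO (SE 0.19, adjusted p = 0.0313 in limma).

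The other called Hox genes act in the trunk, limbs or urogenital tract of the embryo. Hoxd12 (probe set 17763049), a digit gene, was 3.98, 4.68, 4.43 and 4.56 log2 in sham, 3.62, 3.85 and 3.55 in the MCAO arrays and 3.68, 3.51 and 3.75 in those of MCAO+NRG1. Hoxa13 (probe set 17791409), a gene of digits and the genital tract, was 4.15, 4.52, 4.42 and 4.45 log2 in sham, 3.75, 3.52 and 3.92 in the MCAO arrays and 3.64, 3.60 and 3.52 in those of MCAO+NRG1. In both, sham 1 was the lowest sham array and no occluded array reached it. Hoxa10 (probe set 17791404), a gene of the uterus and hindlimb region, was 4.35, 4.55, 4.65 and 4.76 log2 in sham, 4.22, 3.61 and 3.85 in the MCAO arrays and 3.97, 3.71 and 3.88 in those of MCAO+NRG1. Hoxb5 (probe set 17650530), which acts at the level of the shoulder, was 4.16, 4.62, 4.80 and 4.81 log2 in sham, 4.15, 3.87 and 3.84 in the MCAO arrays and 3.85, 4.11 and 3.66 in those of MCAO+NRG1. In these genes too the groups did not overlap, with sham 1 the lowest sham array. In MCAO, Hoxd12 fell by 0.74 log2 (adjusted p = 0.0283), Hoxa10 by 0.68 (0.0325), Hoxa13 by 0.65 (0.028) and Hoxb5 by 0.65 (0.0476), by limma.

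The Hox members were also read by position in their clusters. The paralogues 1 to 4, at the head end, had a median MCAO minus sham difference of −0.21 log2 over 10 genes with 1 called, the paralogues 5 to 8 −0.32 over 9 genes with 1 called, and the paralogues 9 to 13, at the tail end, −0.52 over 12 genes with 3 called. In MCAO+NRG1 against the same sham arrays these medians were −0.47, −0.53 and −0.70 log2, with 1, 2 and 6 called. All of these calls were lower, beside 5.61% and 15.8% of all probe sets. Of the 12 tail-end genes 3 were above background, of the 10 head-end genes 5. The order is given as a description, without a test.

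**Figure D5:**
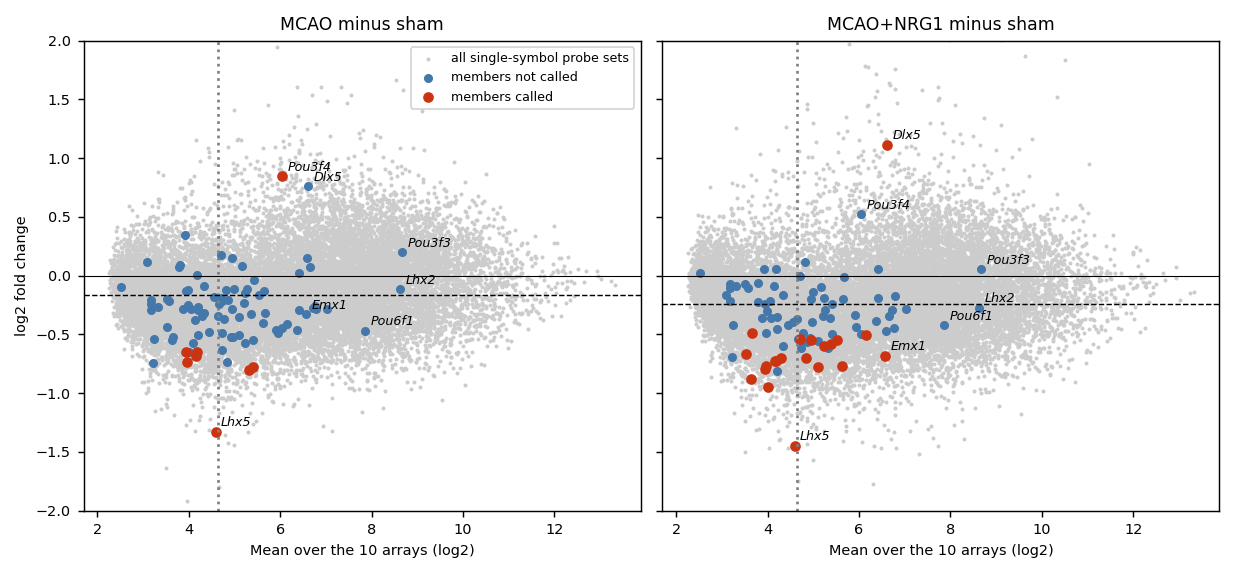
Log2 difference from sham (vertical) against the mean over the 10 arrays (horizontal) for all single-symbol probe sets (grey), members not called (blue) and members called (red), for MCAO (left) and MCAO+NRG1 (right). The dashed line is the median of all probe sets (−0.16 and −0.24) and the dotted line the background level. The vertical axis ends at −2 and 2, beyond which some grey points lie.

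NRG1 was then compared with vehicle among occluded animals (MCAO+NRG1 minus MCAO). No member passed: 0 of 89 were called in limma, beside 0.0054% of all probe sets, and 0 had an unadjusted p under 0.05, beside 3.21%. The median difference was −0.06 log2, and −0.08 for all probe sets, with 57 members negative, beside 68.6% of all probe sets. The arrays of the 2 groups did not overlap for 6 members lower and 1 higher, beside 4.27% and 1.47%. Of the 50 members above background 0 were called, beside 0.00791% lower of such probe sets. The smallest unadjusted p-values in limma were 0.0578 for Nkx1-2 (−0.38 log2, SE 0.19), 0.0594 for Emx1 (−0.35 log2, SE 0.17) and 0.0652 for Pax4 (−0.35 log2, SE 0.18), each with an adjusted p of 0.999. The 95% interval of the difference was −0.54 to 0.30 log2 for Lhx5, −0.81 to 0.16 for Pou3f4, −0.31 to 1.02 for Dlx5, −0.72 to 0.02 for Emx1, −0.56 to 0.25 for Lhx2 and −0.32 to 0.41 for Pou6f1. A missed threshold does not show equal levels.

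MCAO+NRG1 was also compared with sham, over the same 4 sham arrays as MCAO, so the comparisons are not independent. More members passed here: 21 of 89 in limma, 1 higher and 20 lower, beside 17.3% of all probe sets (1.51% higher and 15.8% lower). Above background 10 of 50 were called lower, beside 16.3%, and near background 10 of 39, beside 14.7%. The higher one was Dlx5, and the lower ones included Lhx5, Emx1, Pou3f1 and 9 Hox genes. The median was −0.38 log2, and −0.24 for all probe sets, with 81 members negative, beside 75.9% of all probe sets. The arrays did not overlap for 37 members lower and 0 higher, beside 34.2% and 2.17%. Of the members, 6 were called in both comparisons with sham and 23 in at least 1. Under the 3 other scalings 3 or 4 members were called, Lhx5, Hoxa13 and Dlx5 among them, and with each array centred on its median the split was 1 higher and 2 lower. The count was 39 without sham 1 (25.9% of all probe sets in the same fit), 8 without sham 2 (5.91%), 7 without sham 3 or 4 (7.28% and 6.7%), 32 without MCAO 3 (26.7%), and 9, 8 and 4 without MCAO+NRG1 1, 2 and 3 (6.07%, 9.17% and 4.8%).

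Dlx5 rose by 1.12 log2 (SE 0.29, adjusted p = 0.0216 in limma), through MCAO+NRG1 replicates 2 and 3, as replicate 1 was within the sham range. Without replicate 2 it was 0.73 log2 (adjusted p = 0.0851) and without replicate 3 it was 1.05 (adjusted p = 0.0811). Without sham 2, 3 or 4 it was 1.10, 1.03 and 1.07 log2 and also missed the threshold. Emx1 measured 6.40, 6.07 and 6.09 log2 in MCAO+NRG1, all below the sham arrays, and fell by 0.68 log2 (SE 0.16, adjusted p = 0.0147), but it was not called under the 3 other scalings (−0.42 log2, adjusted p = 0.092 with median centring) or without MCAO+NRG1 2 or 3. Pou3f1 measured 6.30, 6.40, 6.56 and 6.46 log2 in sham and 5.94, 6.03 and 5.80 in MCAO+NRG1, without overlap. It fell by 0.51 log2 (adjusted p = 0.0421), a call kept in 11 of 24 alternatives and lost under the 3 other scalings (−0.24 log2, adjusted p = 0.264 with median centring) and without sham 2, 3 or 4 or any MCAO+NRG1 array. The other cortical members, among them Emx2 (0.05 log2), Lhx2 (−0.27), Pax6 (−0.29), Pou3f2 (−0.44) and Pou3f3 (0.05), were not called.

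The other falls concerned genes known chiefly from tissues outside the cortex. Pou2f3, a factor of tuft and skin cells near background here, was 3.93, 4.54, 4.76 and 4.70 log2 in sham, 3.99, 3.77 and 3.75 in the MCAO arrays and 3.61, 3.44 and 3.57 in those of MCAO+NRG1, and fell by 0.95 log2 in MCAO+NRG1 (adjusted p = 0.00771 in limma). Its coactivator Pou2af2 fell by 0.60 log2. The pituitary factors Pou1f1 and Lhx4 fell by 0.49 and 0.54 log2, the kidney and thyroid factor Pax8 by 0.67, and Nkx2-3, a gene of spleen and gut, by 0.77. Nkx1-2 fell by 0.55 log2. Pou5f1, the pluripotency factor Oct4, fell by 0.70 log2, although its family has processed copies in mammalian genomes that could share its signal. For these genes outside the Hox clusters adjusted p was between 0.00771 and 0.0463. Among Hox genes, Hoxa13 fell by 0.79 log2 (adjusted p = 0.00718) and kept its call in all 23 alternatives. Hoxc12 fell by 0.88 log2, Hoxc13 by 0.78, Hoxd12 by 0.77, Hoxa10 by 0.73, Hoxb5 by 0.73, Hoxb9 by 0.70, Hoxb1 by 0.58 and Hoxb8 by 0.55. For these 9 Hox genes adjusted p was between 0.00718 and 0.0482. Apart from Hoxa13, and Pou2f3 in 2 of them, none of the falls in these genes was called under the 3 other scalings. With median centring Pou1f1 was at −0.22 log2 (adjusted p = 0.409), Lhx4 at −0.27 (adjusted p = 0.245) and Nkx1-2 at −0.29 (adjusted p = 0.2998), and these calls were kept in 9 of 23, 12 of 24 and 11 of 24 alternatives. Leaving out any MCAO+NRG1 array, or sham 2, 3 or 4, ended the calls of Pou1f1, Lhx4, Nkx1-2, Hoxb1, Hoxb8, Hoxb9, Hoxc12 and Hoxc13. Leaving out MCAO+NRG1 1 or 3 did so for Hoxb5, Nkx2-3 and Pou5f1, 2 or 3 for Hoxa10 and Pou2af2, and 3 for Pax8. Sham 2, 3 or 4 did so for Hoxb5, Nkx2-3 and Pou2af2, sham 3 or 4 for Pou5f1, and MCAO 1 for Hoxb1 and MCAO 2 for Pou1f1.

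The Pax, Nkx and sine oculis families were read beside 6.7% of all probe sets called in MCAO and 17.3% in MCAO+NRG1 against sham. At such shares families of this size give few calls or none. Of 8 Pax members 0 passed in MCAO and 1 in MCAO+NRG1 against sham, and of 11 Nkx members 0 and 2. All 11 Nkx members had negative values in both, beside 69.0% and 75.9% of all probe sets. Of 5 sine oculis family members 0 passed in either. Six6, an eye and pituitary factor, was 5.86, 6.498, 6.58 and 6.33 log2 in sham and 5.97, 6.01 and 5.62 in MCAO, with sham 1 inside the MCAO range, at −0.45 log2 (SE 0.19). MCAO replicate 3 stood apart from the other MCAO arrays for some members, such as Hoxd10 (4.00, 3.44 and 5.01 log2), Six2 (3.88, 3.71 and 5.18) and Hoxb2 (4.50, 4.37 and 5.76).

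Partner proteins were read from lists of known cofactors. Beside their counts, 5.61% of all probe sets were called lower in MCAO and 15.8% in MCAO+NRG1 against sham. The calls in these lists and in the cell marker lists were not followed under the other scalings or with arrays left out. A list of 11 genes, all above background, held TALE cofactors of Hox proteins from the Pbx, Meis and Pknox families. It also held the TALE repressors Tgif1 and Tgif2 and the Pbx-interacting protein Pbxip1. In MCAO 2 fell, Tgif1 (−0.74 log2, adjusted p = 0.0246 in limma) and Tgif2 (−0.75, adjusted p = 0.0493), and no Pbx, Meis or Pknox gene passed. In MCAO+NRG1 against sham 4 fell, with Pknox2 (−0.67) and Pbxip1 (−0.64) added. The list's median was −0.50 log2 in MCAO. Meis2, a striatal and Hox cofactor gene, was at 0.63 log2 in MCAO (adjusted p = 0.0782). Of 15 Polycomb and related regulators, which keep Hox loci silent, 3 fell in MCAO: Ring1 (−0.71 log2, adjusted p = 0.0435 in limma), Pcgf2 (−0.76, adjusted p = 0.0319) and Phc2 (−0.65, adjusted p = 0.0333). For Ring1 the arrays overlapped, at 7.03 log2 in MCAO 3 and 6.96 in sham 1, and for Pcgf2 and Phc2 they did not. The same 3 genes fell in MCAO+NRG1 against sham, where Kdm6b, which removes the Polycomb mark from histone H3, rose by 0.71 log2 (adjusted p = 0.0339).

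Of 6 Eya, Dach and related partners of sine oculis factors, 5 were above background. Dach2, near background at a mean of 4.30 log2, fell in MCAO (−0.63 log2, adjusted p = 0.0444 in limma). In MCAO+NRG1 against sham Dach2 and Sobp fell (−0.74 and −0.71). A list of 7 genes held Groucho corepressors of the Tle family and the repressors Hes1 and Hes5. Of these 7, 0 passed in MCAO, and Tle1 and Tle3 fell in MCAO+NRG1 against sham (−0.61 and −0.67 log2). Of 11 other interneuron lineage factors, 9 of them above background, 0 passed in MCAO. In MCAO+NRG1 against sham 4 of these fell (Gsx2, Sp8, Nr2f2 and Npas1), and of the 18 cortical identity factors 4 fell there (Eomes, Bcl11b, Neurod2 and Zfhx3). Of 63 homeobox genes outside the families above, 46 of them above background, 6 fell in MCAO (En1, Phox2a, Cdx1, Onecut1, Hmx1 and Hmx2). In MCAO+NRG1 against sham 17 fell. For all lists here, the shares of all probe sets called lower were 5.61% in MCAO and 15.8% in MCAO+NRG1 against sham. The median of the 63 in MCAO was −0.30 log2, close to the −0.29 of the members. Of these 63 none rose in either. No gene of these lists was called between MCAO+NRG1 and MCAO.

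Vascular markers were also lower in the occluded arrays: of 8 endothelial markers, all above background, 3 fell in MCAO and 8 in MCAO+NRG1 against sham, and 2 and 4 of 8 mural markers. Of all probe sets 5.61% and 15.8% were called lower in these comparisons. The summed endothelial level was 10.1 to 10.3 log2 in sham, 9.36 to 9.81 in MCAO and 8.58 to 9.63 in MCAO+NRG1. Of 10 interneuron markers 1 fell in MCAO, Sst, and 0 rose. The part of vascular cells in the falls of members was not tested. Without the 5 genes that make no protein with a homeodomain or paired domain, the counts over 84 members were 1 higher and 7 lower in MCAO. In MCAO+NRG1 against sham they were 1 higher and 19 lower.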

How the data were processed

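Affymetrix Rat Gene 2.0 ST arrays were measured on left cortex of 10 rats, in groups taken from the sample titles. The authors deposited log2 values of 36685 probe sets, made by the RMA method of the oligo package, which subtracts background, equalises the distributions of arrays and summarises probes. Versions are not given in the sources used here. Medians of the arrays are unequal in the table, so it is not known whether RMA was run over all of them at once. Symbols came from the platform annotation; 18511 probe sets had a single symbol and were tested, while 575 with several and 17599 without a symbol were left out. Positions of probe sets are not given, since their assembly is not named.

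A model of 3 groups was fitted to all 18511 probe sets in limma (version 3.58.1, R 4.3.3, eBayes at its defaults), with calls at a Benjamini-Hochberg adjusted p under 0.05 over that table for each contrast. It was tested on simulated data. Animals are the replicates, and the number of arrays limits the precision. Members, lists and the rule for named genes (members called, up to 3 per family of highest mean, members of named forebrain roles, Pou6f1 and Lhx3, which the study names, up to 3 of smallest p per contrast, and up to 4 per list) were chosen with earlier results of these data known. The values of Hoxd10, Six2 and Hoxb2 in MCAO replicate 3 were picked after their values were seen. Summed marker levels are log2 of the sum of linear signals.

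Alternatives tried were median centring, quantile normalization and centring on the receptor probe sets, the dim probe sets left out, all probe sets tested, 1 probe set per gene or their mean, trend and robust settings, array weights, the replicate block, fits of 2 groups, unadjusted p, other background percentiles and each array left out. The counts of alternatives that kept a call include unadjusted p, under which a call cannot be lost. They also include 1 probe set per gene and the mean of a gene's probe sets. These are close to the main fit, as each member has 1 probe set.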

Additional observations from a re-analysis of the deposited data

Results flagged for a closer look

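Of 82 levels and marker medians of the 4 sham arrays that were examined, 9 had a single array far from the other 3, measured by its gap to the nearest array over the whole range. Chance gives such a gap in about 1 in 20 independent groups. The 82 items come from the same 4 arrays and are not independent, so their number cannot be judged by that rate. Sham 1 was the array apart in 6 of the 9. It was high for Pou3f4 (5.92 log2, others 5.52 to 5.56) and Dlx1 (7.58, others 6.61 to 6.77), and low for Nkx2-3 (5.60, others 6.08 to 6.12) and Lhx3 (6.22, others 6.72 to 6.79). In the same array the median of the astrocyte markers against the sham mean was 0.45 log2 (others −0.15 to −0.10) and that of the interneuron markers −0.0777 (others 0.03 to 0.04).

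Sham 3 was high for Emx1 (7.13 log2, others 6.76 to 6.82) and Nkx6-1 (4.53, others 4.01 to 4.04), and sham 2 for the median of the endothelial markers (0.12 log2, others −0.09 to −0.05). Without sham 1 the MCAO call of Pou3f4 was kept, and without sham 3 the MCAO+NRG1 call of Emx1 against sham was kept.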

How the results depend on the processing

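The number of members called was 8 in MCAO against sham, 0 in MCAO+NRG1 against MCAO and 21 in MCAO+NRG1 against sham; the middle count was 0 under every alternative run. The other counts, in that order and with the share of all probe sets called in the same fit, were 2 and 3 with median centring (3.26% and 5.38%), 2 and 4 with quantile normalization (4.01% and 5.62%), 1 and 4 with the receptor probe sets as the scale (0.659% and 2.63%), 3 and 11 with dim probe sets left out (50 members tested, 7.16% and 19.4%), 1 and 8 with all probe sets tested (0.837% and 6.06%), 45 and 49 with array weights (38.5% and 42.2%), and 32 and 44 at an unadjusted p (29% and 36%). Fits of only the groups compared gave 2 and 30 (2.75% and 25.1%). Under the replicate block they were 1 and 8 (1.25% and 7.74%), but the numbers were not taken to pair animals: same-numbered arrays deviated from their group means with r from −0.19 to 0.22, and the same number gave the highest correlation in 7 of 18 comparisons. Leaving out an array gave 1 to 26 and 4 to 39, with 0 throughout for MCAO+NRG1 against MCAO. Chosen after seeing the data, leaving out sham 1 and MCAO 3 together gave 40 and 49 (31.6% and 37.7%), and median centring without sham 1 gave 15 and 12 (16.4% and 17.1%). Median centring shifted the median of all probe sets from −0.16 to 0.00 in MCAO and from −0.24 to 0.03 in MCAO+NRG1 against sham, and the members were then at −0.13 and −0.12 log2. No value changed its direction past the threshold. With the background at the percentile 90 or 99 of the receptors, 62 or 19 members were above it.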
